A study of Mus musculus with 20 samples.

Results

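The chromosomal contacts described here are those between HindIII fragments of the Sox2 region that touch neither Sox2 nor its control region. They come from chromosome conformation capture carbon copy (5C), in which fixed chromatin is cut, nearby fragment ends are ligated, and pairs of a forward and a reverse primer are joined and counted wherever their 2 fragments were ligated. The region spans chr3:34107373-35107373 of the mouse build mm9. A pair was taken where both primers belonged to this region, where no fragment overlapped chr3:34538927-34558927 (around Sox2) or chr3:34648927-34668927 (the control region), and where the mean over the 10 5C libraries was at least 10 counts. This held for 13726 of the 16128 forward and reverse pairs away from both intervals, out of 17556 pairs of the region and 97243 pairs within any of the 7 regions of the study. The other 2402 pairs were below 10 counts. The 13726 pairs join 254 fragments with a median length of 2206 bp, at distances from 0.238 to 992 kb with a median of 269 kb.

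Sox2 is a transcription factor of pluripotent cells and of neural progenitors. In mouse embryonic stem cells its transcription depends on the control region, a distal enhancer cluster downstream of the gene, whereas neural cells use other regulatory sequences. Chromosomes fold into domains whose sequences touch each other more often than their neighbours, with boundaries that are often bound by CTCF and cohesin, and such folding changes when cells differentiate. Between the genes Dnajc19 and Atp11b, which flank the region in the RefSeq annotation, Sox2 is the single protein-coding gene, beside 16 long noncoding RNAs (among them Sox2ot, which overlaps Sox2), 3 pseudogenes, 2 miRNAs and 1 snRNA.

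The 5 groups had 2 5C and 2 RNA libraries each. iPS cells in 2i were induced pluripotent stem cells of the genotype Sox2-eGFP, made from primary neural progenitors and expanded in serum-free 2i medium with LIF, CHIR99021 (an inhibitor of GSK3) and PD0325901 (an inhibitor of MEK). iPS cells were cells of the same genotype in serum and LIF. NPC were primary neural progenitor cells taken at postnatal day 1 from the whole brains of mice that carry Sox2-eGFP, grown as neurospheres and fixed after adherent plating. ES cells in 2i and ES cells were the male V6.5 line, without the Sox2-eGFP label, in 2i medium and in pluripotent medium with LIF. The strain of every group was 129SvJae x C57BL/6. All ES and iPS cells were expanded on Mitomycin-C-treated mouse embryonic fibroblasts and then moved to gelatin to remove these feeders, and every 5C sample was fixed with 1% formaldehyde. The number of iPS clones is not given in the sources used here, and the V6.5 line cannot be told apart from its cell state when it is set against NPC or iPS cells. No label says that replicates were separate cultures, and p-values therefore measure the spread between libraries, which may be technical.

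Total 5C counts per library ran from 10508118 to 14887963, except for the ES libraries with 26533530 and 25791222. Counts between different regions made up 8.01% to 19.2% of them, and they differed within a group, as in ES cells in 2i with 8.14% and 16.2%. The pairs described here held 89.8% to 94.0% of the counts of the Sox2 region, with a median of 21 to 76 counts per pair and library. Because the ES libraries were deepest, 764 of the 13726 pairs (5.57%) would have had a mean under 10 without them, against 189 for iPS, 83 for NPC, 19 for iPS in 2i and 17 for ES in 2i. The 3 pairs just above the threshold had a mean of 10.0 counts and the 3 just below it 9.9 counts. Of 6 pluripotency markers, 5 were measured in RNA, and all 5 were at 0 in both NPC libraries. Summed neural progenitor markers (5 of 6 measured) were 7221 and 8642 CPM in NPC and at most 80.6 CPM elsewhere. Summed fibroblast markers (5 of 6 measured) were 821 and 834 CPM in iPS cells in 2i, 2605 and 2804 CPM in iPS cells, 74.5 and 104 CPM in NPC, 384 and 390 CPM in ES cells in 2i, and 1163 and 1349 CPM in ES cells. In NPC 1 of these 5 was at 0 in replicate 1, and nowhere else was any at 0. Their part in the 5C results was not tested. Counts assigned to transcript models ran from 1150624 to 17286063 per RNA library. Reads counted to no feature made up 26.5% to 86.6%, and they differed within a group, as in ES cells with 26.5% and 81.5%. The fewest assigned counts and the highest of these percentages were both in NPC replicate 1.

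Levels are given as observed over expected, where 1 is the mean pair of the same library, region and distance class (20 classes). To see where the region folded differently, the counts were also summed over blocks of 40 by 40 kb, which gave 324 blocks. Positions are given in kb from the start of Sox2, with negative values upstream. Between libraries, the log2 ratios of the 13726 pairs correlated at 0.780 to 0.865 within groups, at 0.834 to 0.850 between iPS cells in 2i and ES cells in 2i, at 0.702 to 0.752 between iPS and ES cells, and at 0.579 to 0.659 between NPC and ES cells. Between iPS cells and NPC they were 0.667 to 0.754, which covers the range between iPS and ES cells. Between ES cells in 2i and ES cells they were 0.689 to 0.736, and between iPS cells in 2i and iPS cells 0.801 to 0.829. These correlations run over pairs, which share fragments and are not independent.

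A few blocks were high or low in all 10 libraries, although their levels differed between libraries. Contacts within the window centred at -342 kb held the most counts of any block, with 2.19 to 3.32 times the expected level. Contacts of that window with the one at -142 kb were at 1.92 to 2.47, and those within the window at -142 kb at 2.05 to 3.23. At the other end, contacts between the windows at 258 and 298 kb were at 0.235 to 0.389, and those between the windows at -62 and -22 kb at 0.273 to 0.455. These blocks were chosen after their values were seen, and no test was made of them. Their expected level was set by distance alone, so contacts and primers that are high or low in every library cannot be told apart. Of the 16 pairs within the window at -142 kb, 1 was at 2.06 to 3.76 over the 10 libraries. It was at 0.842 to 1.34 with an expected level also scaled per primer. The contacts that span a given point, with both fragments within 200 kb of it, had their lowest group mean near -62 or -42 kb in iPS cells in 2i, iPS cells, ES cells in 2i and ES cells (0.638, 0.784, 0.624 and 0.741). In NPC the lowest group mean, 0.537, was at 438 kb, and spanning contacts were also low behind Sox2.

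**Figure D1:**
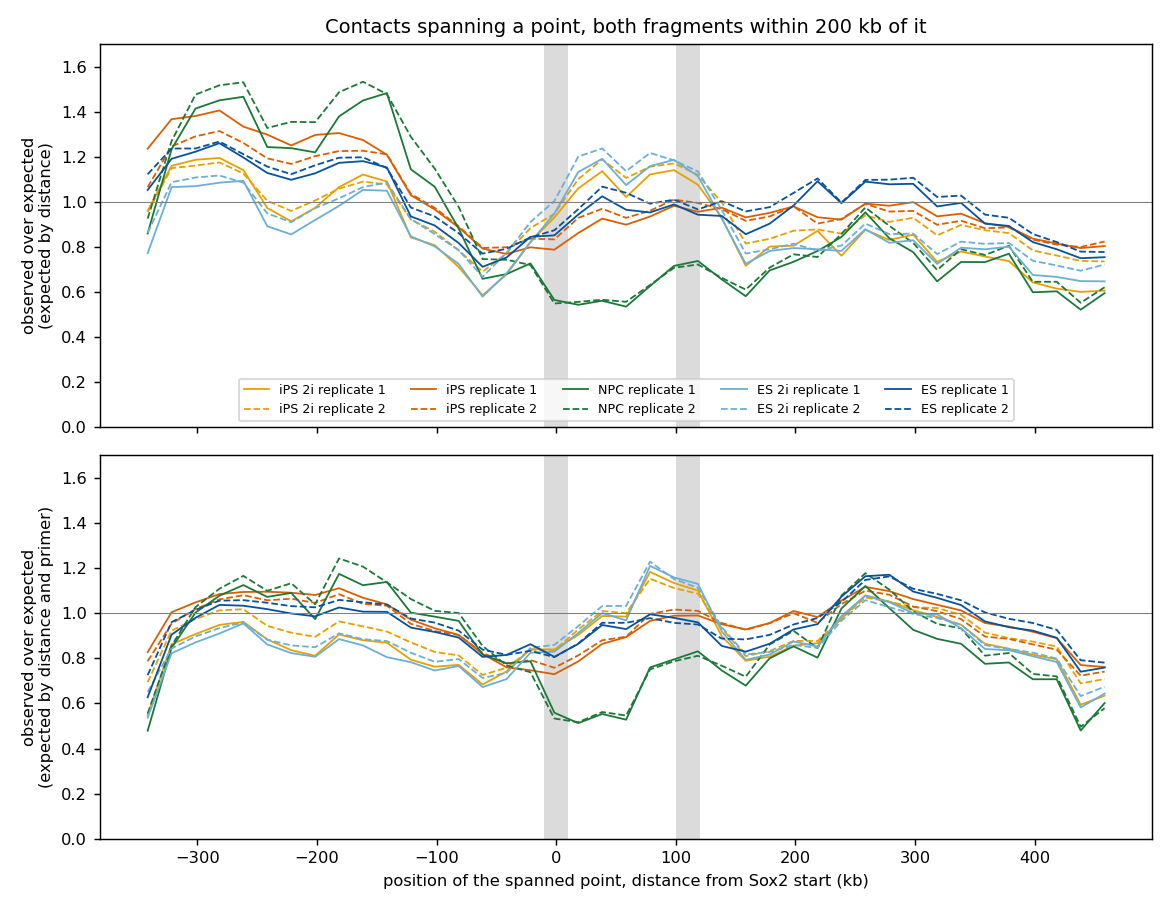
Contacts spanning a point, as observed over expected, against the position of the point in kb from the Sox2 start, 1 line per library (solid for replicate 1, dashed for replicate 2) and grey bars for the 2 excluded intervals. The upper panel uses the expected level by distance and the lower one also scales it per primer. Between -2 and 58 kb both NPC lines run between 0.513 and 0.566 over both panels, below all other lines.

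Spanning contacts across Sox2 and the stretch behind it were lower in NPC than in any other library. At 18 kb they were 0.544 and 0.557 in NPC, against 1.06 and 1.10 in iPS cells in 2i, 0.862 and 0.929 in iPS cells, 1.13 and 1.20 in ES cells in 2i, and 0.944 and 0.968 in ES cells. At 58 kb they were 0.535 and 0.557 in NPC, against 0.899 to 1.14 in the remaining 8 libraries. Upstream the order turned round, since at -142 kb NPC had 1.48 and 1.48 and the other libraries 1.05 to 1.21. The first difference remained at 0.513 and 0.517 in NPC against 0.787 to 0.943 elsewhere at 18 kb when the expected level was also scaled per primer, a choice made after seeing the data. With that scaling the upstream difference at -142 kb was smaller, with 1.14 and 1.14 in NPC against 0.805 to 1.04 elsewhere. No p is given for these values, because an exact two-sided permutation test of 2 libraries against 2 cannot go below 0.33.

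The first comparison asks how the region is folded in NPC relative to ES cells. Windows that overlap the excluded intervals or lie between them, those centred from -22 to 138 kb, are counted as central. Contacts across Sox2 and the control region, from the upstream to the downstream side, were lower in NPC: 49 of the 100 such blocks fell and 9 rose. Contacts that stay upstream, and those that link the stretch around the excluded intervals to the far upstream or downstream side, were more often higher in NPC, although for blocks with both windows upstream the split turned to 13 higher and 17 lower with an expected level also scaled per primer. Of the 55 blocks with both windows upstream, 20 rose and 6 fell, of the 50 between an upstream and a central window 24 rose and 10 fell, and of the 50 between a central and a downstream window 23 rose and 16 fell. Among the 55 downstream blocks 7 rose and 21 fell, and among the 14 within the centre 1 rose and 9 fell. In all, edgeR's quasi-likelihood test with Benjamini-Hochberg adjustment called 195 of the 324 blocks (60.2%), 84 higher and 111 lower in NPC, against 45.4% of the 3003 blocks of all regions. Downward calls made up 34.3% of the Sox2 blocks and 23.3% of all blocks, and upward calls 25.9% and 22.0%. Leaving out single libraries gave 137 to 195 blocks.

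The block with the deepest fall joined the windows at -62 and 138 kb, chr3:34467373-34507372 and chr3:34667373-34707372. It was at 0.283 and 0.331 in NPC and at 1.13 and 1.15 in ES cells. That is a log2 change of -1.89 (SE 0.11, edgeR adjusted p = 4.75e-07). The windows at -102 and 338 kb had 0.394 and 0.492 in NPC against 1.51 and 1.74 in ES cells (log2 change -1.87, SE 0.16). That block holds a primer pair that was high in ES cells alone, described below, and was not tested without it. The windows at -22 and 138 kb had 0.359 and 0.355 in NPC against 1.15 and 1.26 in ES cells (log2 change -1.75, SE 0.11). By their fragments all 3 join a stretch upstream of Sox2 with one beyond the control region. The windows at -22 and 138 kb count as central, so only the block at -102 and 338 kb belongs to the upstream to downstream class.

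The largest rise in a block with more than 10 pairs joined the windows at -222 and 18 kb, chr3:34307373-34347372 and chr3:34547373-34587372. It had 2.41 and 2.20 in NPC against 0.901 and 0.968 in ES cells (log2 change 1.30, SE 0.11, edgeR adjusted p = 4.04e-06). The 9 pairs between the windows at 98 and 458 kb changed by about as much, with 1.59 and 2.15 in NPC against 0.800 and 0.711 in ES cells (log2 change 1.31, SE 0.26). The 4 pairs within the window at 258 kb had the largest change, 0.749 and 0.730 in NPC against 0.133 and 0.185 in ES cells (log2 change 2.22, SE 0.18). In that last block the ES libraries were low and the other 8 libraries lay between 0.448 and 0.749.

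**Figure D2:**
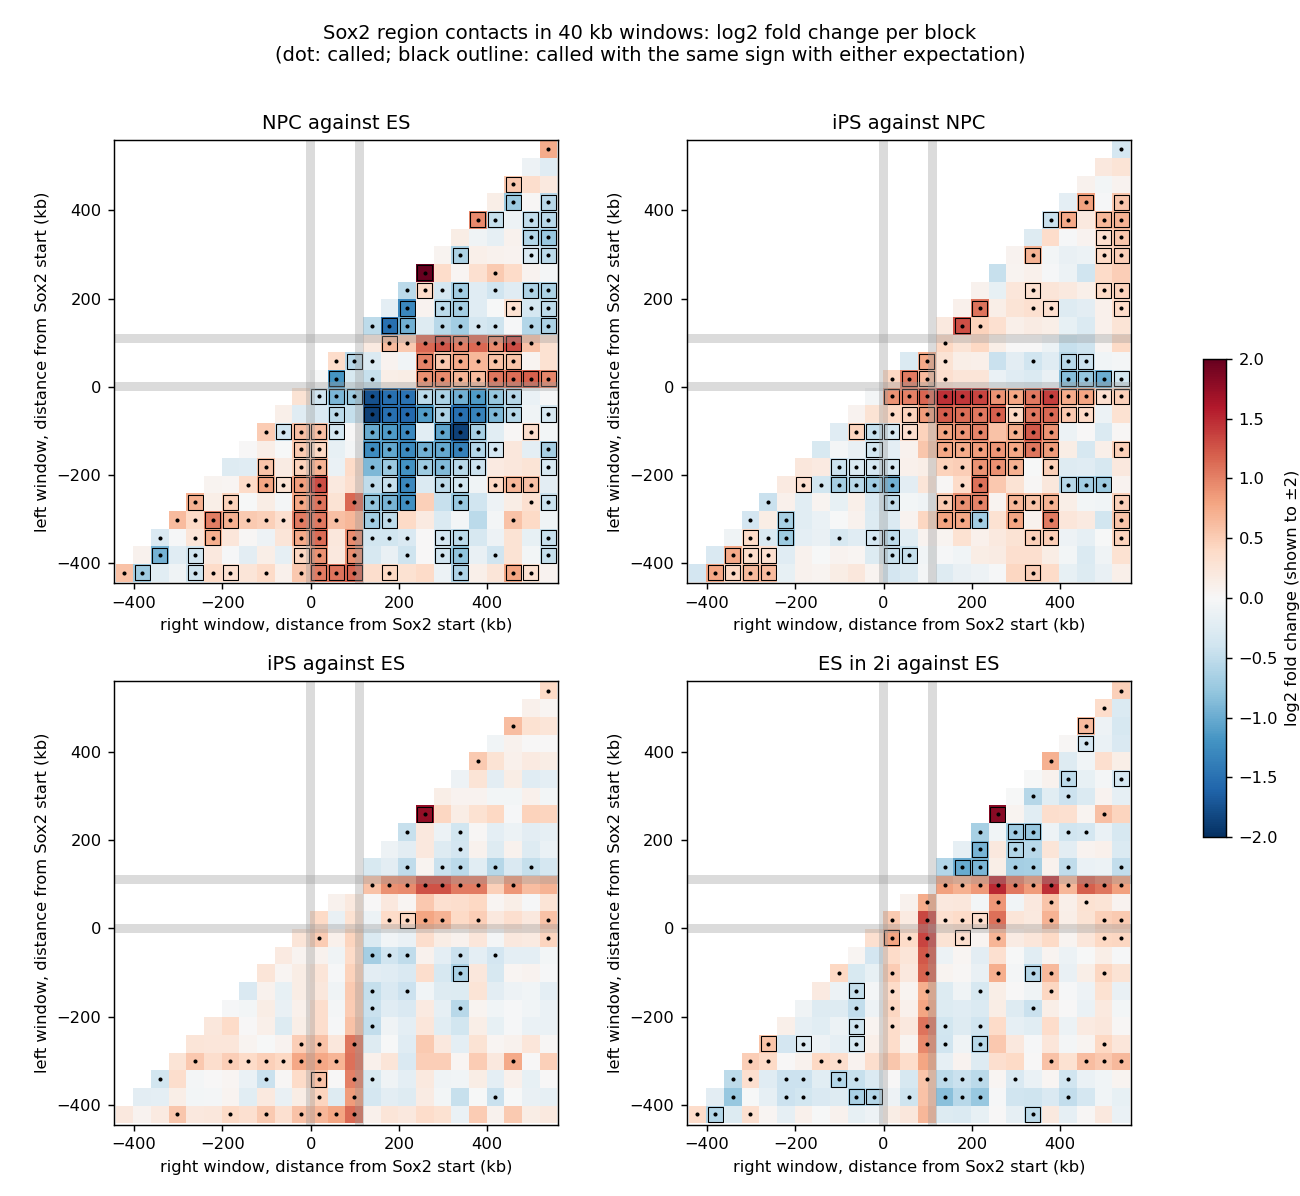
Log2 fold change of each 40 by 40 kb block of Sox2 region contacts in 4 comparisons, by the positions of its left and right window in kb from the Sox2 start, with grey bars for the excluded intervals. A dot marks a called block and a black outline one called with the same sign with either expected level. In NPC against ES the blue field of lower contacts lies where upstream windows meet windows beyond the control region, and it is red in iPS against NPC.

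**Figure D3:**
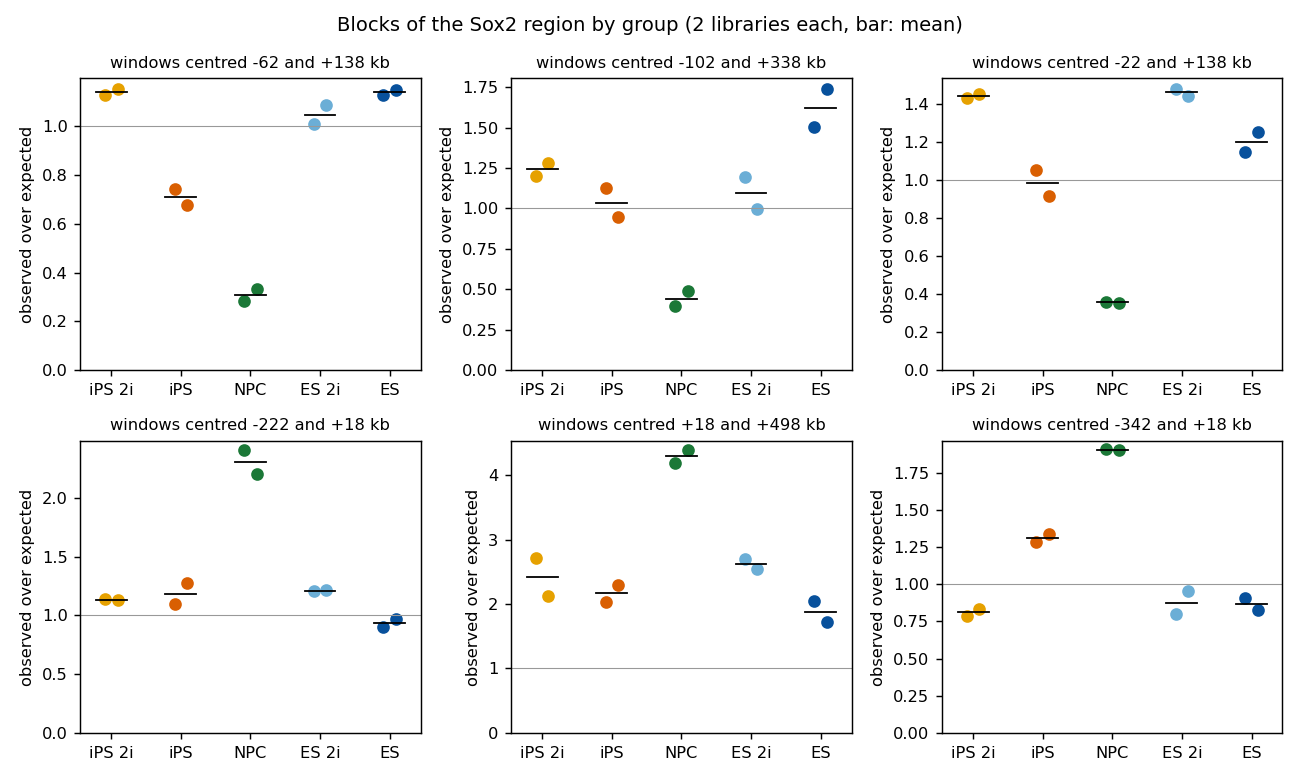
Observed over expected of 6 blocks named in the text, 1 point per library and a bar for the mean of 2, with the windows' centres in kb from the Sox2 start. The 3 upper blocks are lowest in NPC (0.283 to 0.492) and the 3 lower blocks are highest there (1.90 to 4.39).

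At the level of single primer pairs, 2116 of 13726 (15.4%) differed between NPC and ES cells, 919 higher and 1197 lower in NPC, against 17.8% of the 75889 pairs of all regions (8.53% higher and 9.32% lower). The share was 26.0% among the 1167 Sox2 region pairs that touch an excluded interval. The contacts away from Sox2 and its control region thus had a share near that of all regions. Of the pairs that reach from upstream of Sox2 to beyond the control region, 93 rose and 621 fell, whereas 469 rose and 185 fell among the pairs with both fragments upstream. Over 5256 pairs, the first class was at 0.875 and 0.886 in NPC against 1.19 and 1.20 in ES cells. The 999 pairs from between the intervals to beyond the control region were at 1.40 and 1.41 in NPC against 1.05 and 1.04 in ES cells, with 129 rising and 14 falling. The split of the pair calls moved with the scaling: TMM factors gave 1456 higher and 988 lower, and region totals without distance classes 506 higher and 3171 lower. With region totals the median log2 change of all 75889 pairs was -0.59, against -0.01 with distance classes. Without ES replicate 1 there were 1122 called pairs, and without ES replicate 2 there were 947.

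Of the 4 pairs with the largest rises in NPC, 3 met at a few neighbouring fragments. Primer names are given without their shared start. Fragments REV_73, FOR_74 and REV_75 lie next to each other at chr3:34341259-34346107. FOR_74 with REV_49 (73 kb apart, chr3:34264022-34277800) had 546 and 558 counts in NPC and 96 and 105 counts in the deeper ES libraries. As observed over expected this was 6.62 and 5.54 in NPC, 0.792 to 1.39 in the 6 iPS and 2i libraries, and 0.519 and 0.545 in ES cells (log2 change 3.51 for NPC against ES, SE 0.34, edgeR adjusted p = 5.98e-07). REV_75 with FOR_114 (120 kb apart, chr3:34462620-34468976) had 5.37 and 5.42 in NPC against 0.613 and 0.659 in ES cells (log2 change 3.08, SE 0.35). Both pairs were high in the NPC libraries alone, by a margin larger than the spread of any group. The third of the 4 rises lay elsewhere, at FOR_282 (chr3:34920990-34927312) with REV_280 (chr3:34919315-34920956) on the downstream side. It had 1.89 and 1.65 in NPC against 0.157 and 0.194 in ES cells (log2 change 3.33, SE 0.28), and 0.88 with the scaling per primer (edgeR adjusted p = 0.00446).

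REV_73 also met FOR_148, a fragment of 5231 bp at chr3:34531500-34536730 just upstream of the Sox2 interval. This pair had 8.32 and 9.93 in NPC and 1.42 to 2.37 in the iPS and 2i groups, against 0.487 and 0.542 in ES cells (log2 change 4.14, SE 0.38, edgeR adjusted p = 4.46e-07 for NPC against ES). With the expected level scaled per primer the values were 3.88 and 3.97 in NPC and 2.00 and 1.79 in ES cells, and the log2 change was 1.05 (edgeR adjusted p = 0.0117). FOR_148 as a whole was lower in ES cells than in all other groups, with 1.04 and 1.27 in NPC and 1.00 to 1.26 in the iPS and 2i groups, against 0.282 and 0.374 in ES cells. Of its 120 pairs 66 were called higher in NPC than in ES cells, 62 in iPS than in ES cells and 71 in ES cells in 2i than in ES cells. A change in a fragment's contacts with all its partners and a change in how its primer performs cannot be told apart in these counts.

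Among the falls, FOR_136 (chr3:34501274-34506023) with REV_270 (chr3:34886487-34894623), 387 kb apart, had 2 and 18 counts in NPC and 362 and 268 counts in ES cells. This was 0.0760 and 0.583 in NPC against 5.49 and 3.74 in ES cells (log2 change -3.74, SE 0.54, edgeR adjusted p = 7.11e-05). The size rested on the NPC libraries, with -2.98 without NPC replicate 1 and -5.86 without NPC replicate 2, both called. FOR_190 (chr3:34693409-34694796) with REV_142 (chr3:34519762-34524214) had 0.725 and 0.462 in NPC against 3.64 and 5.37 in ES cells (log2 change -2.93, SE 0.40). Both pairs span Sox2 and the control region, and in both the 8 libraries of pluripotent cells were above the NPC libraries. The largest fall belonged to FOR_276 with REV_111, which was near the expected level in NPC and the iPS and 2i groups, against 19.97 and 19.6 in ES cells.

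Whole fragments were compared through the sum of their pairs. Between NPC and ES cells 101 of 254 fragments (39.8%) were called, 57 higher and 44 lower in NPC, against 44.3% of the 1534 fragments of all regions (26.0% higher and 18.3% lower). REV_234 (chr3:34815518-34818355) led the rises with 0.676 and 0.647 in NPC against 0.127 and 0.154 in ES cells (log2 change 2.23, SE 0.22). FOR_206 (chr3:34738389-34740205) led the falls with 0.581 and 0.519 in NPC against 1.36 and 1.42 in ES cells (log2 change -1.34, SE 0.13). REV_99 rose by 1.93, while FOR_185 fell by 1.20 and REV_220 fell by 1.09 on the log2 scale. For each of these 5 fragments the ES libraries lay outside the range of the other 8 libraries, which was 0.449 to 0.676 for REV_234 and 0.519 to 0.867 for FOR_206. REV_99 was no longer called without NPC replicate 2 (log2 change 1.38). Without ES replicate 1 or 2, or NPC replicate 2, 51, 45 and 48 fragments were called.

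**Figure D4:**
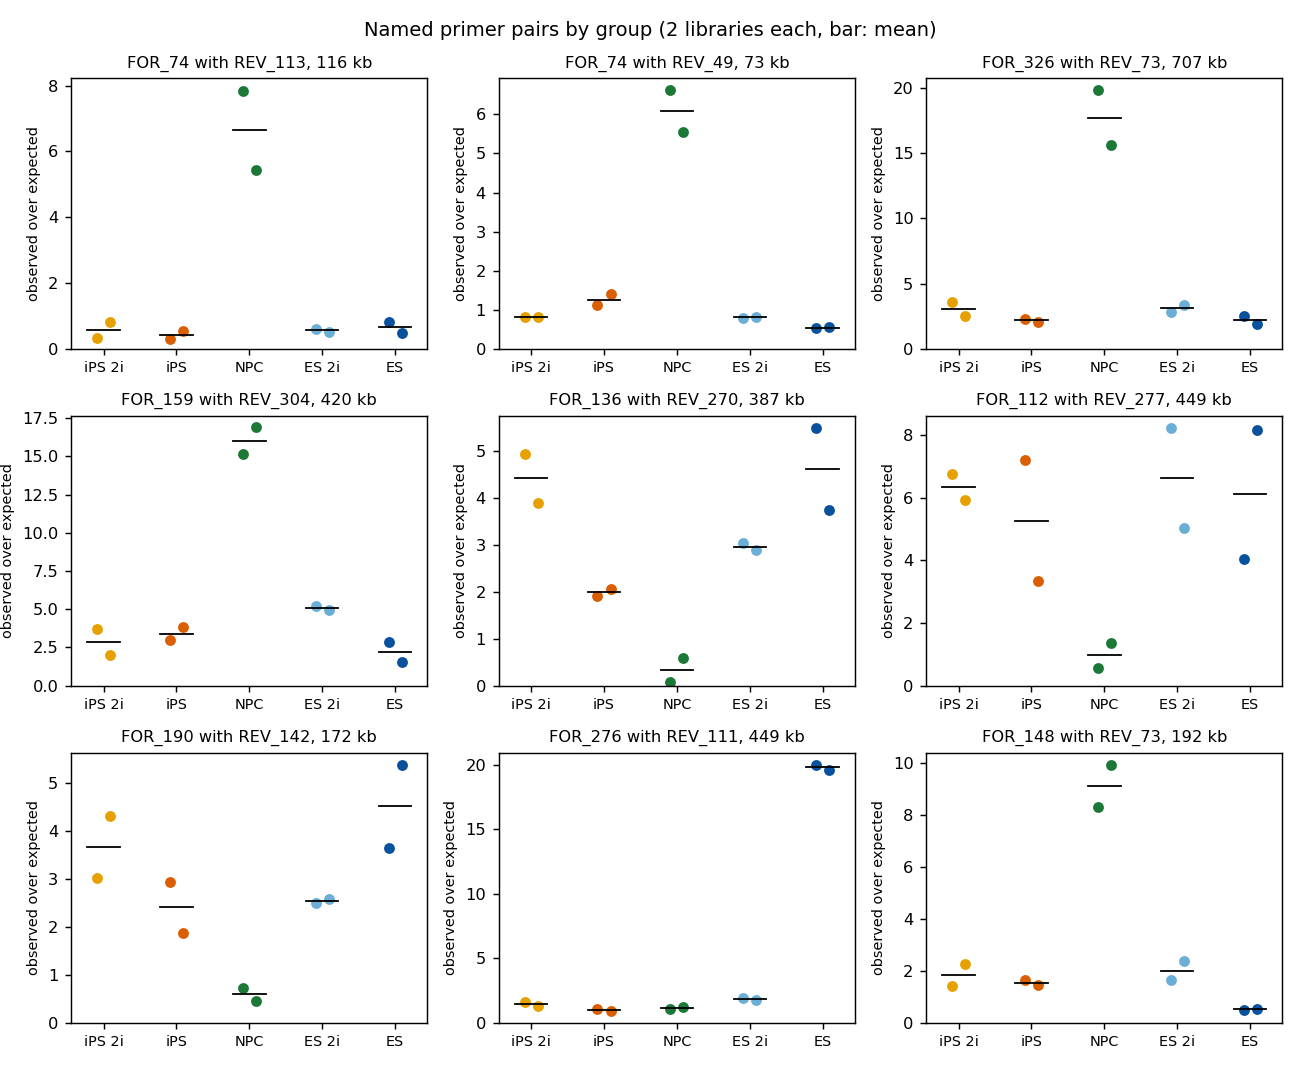
Observed over expected of 9 primer pairs named in the text, 1 point per library and a bar for the mean of 2, with the distance between the fragments in kb. FOR_74 with REV_113 reaches 5.43 and 7.84 in NPC and stays at or below 0.799 elsewhere, and FOR_276 with REV_111 stands at 19.6 and 19.97 in ES cells alone.

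The second comparison asks how far these contacts differ between iPS cells and the NPC they were made from. The field that was low in NPC was higher in iPS cells: of the 100 blocks that join upstream and downstream windows, 41 rose and 4 fell. Over all 324 blocks 137 were called (42.3%), 101 higher and 36 lower in iPS cells, against 33.4% of the blocks of all regions. Upward calls made up 31.2% of the Sox2 blocks and 21.4% of all blocks. This comparison and the first share the NPC libraries, so opposite signs in both are partly built in.

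The windows at -22 and 138 kb had 1.05 and 0.914 in iPS cells against 0.359 and 0.355 in NPC (log2 change 1.46, SE 0.11, edgeR adjusted p = 7.26e-06). Those at -22 and 178 kb had 0.770 and 0.759 in iPS cells against 0.288 and 0.279 in NPC (log2 change 1.43, SE 0.10). Those at -22 and 378 kb had 0.903 and 0.969 in iPS cells against 0.324 and 0.394 in NPC (log2 change 1.38, SE 0.16). In all 3 the window at -22 kb, just upstream of Sox2, was one of the partners. That window counts as central, so none of the 3 belongs to the class of blocks that join upstream and downstream windows.

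The largest falls joined the window at 18 kb, directly behind Sox2, to distant windows. With the window at 498 kb it had 2.03 and 2.30 in iPS cells against 4.20 and 4.39 in NPC (log2 change -0.99, SE 0.14, edgeR adjusted p = 0.000224). With the window at -222 kb it had 1.09 and 1.28 in iPS cells against 2.41 and 2.20 in NPC (log2 change -0.96, SE 0.11). With the window at 418 kb it had 1.92 and 2.21 in iPS cells against 3.82 and 3.65 in NPC (log2 change -0.85, SE 0.12). These 3 blocks thus stood above the expected level in iPS cells too, and higher still in NPC.

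Of the primer pairs 627 (4.57%) were called, 446 higher and 181 lower in iPS cells, against 6.91% in all regions (4.92% higher and 2.0% lower). FOR_112 (chr3:34455380-34457585) with REV_277 (chr3:34902587-34908457) had 7.20 and 3.33 in iPS cells against 0.564 and 1.38 in NPC (log2 change 2.43, SE 0.48). FOR_228 (chr3:34782485-34787890) with REV_69 (chr3:34329840-34335677) had 2.64 and 3.48 in iPS cells against 0.699 and 0.395 in NPC (log2 change 2.49, SE 0.45). FOR_136 with REV_270, described above, had 1.91 and 2.07 in iPS cells against 0.0760 and 0.583 in NPC (log2 change 2.53, SE 0.54). FOR_148 with REV_186 had 4.15 and 2.82 in iPS cells against 0.865 and 0.530 in NPC (log2 change 2.33, SE 0.40). In all 4 pairs both iPS libraries lay above both NPC libraries, which follows largely from their choice as the largest called rises. FOR_136 with REV_270 changed by 1.76 without NPC replicate 1, no longer called, and by 4.65 without NPC replicate 2. FOR_112 with REV_277 changed by 3.22 without NPC replicate 2 and by 1.77 without iPS replicate 1, and it was not called in that last fit or without NPC replicate 1.

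The falls again met at the fragments near chr3:34341259-34346107. FOR_74 with REV_113 (chr3:34457586-34462619) had 18 and 32 counts in iPS cells and 435 and 378 counts in NPC, which was 0.287 and 0.540 in iPS cells against 7.84 and 5.43 in NPC (log2 change -4.00, SE 0.48, edgeR adjusted p = 3.27e-05). Its 15 neighbouring pairs, with both fragments within 10 kb, were at 2.16 and 1.82 in iPS cells against 4.06 and 3.98 in NPC. REV_73 with FOR_326 (chr3:35047461-35051054) reached over 707 kb and had 2.30 and 2.02 in iPS cells against 19.9 and 15.6 in NPC (log2 change -3.03, SE 0.37). Its 27 neighbours were at 2.01 and 1.83 in iPS cells against 3.92 and 3.60 in NPC. FOR_159 (chr3:34565396-34568295), between the 2 excluded intervals, met REV_304 (chr3:34985099-34988340) at 2.97 and 3.82 in iPS cells against 15.1 and 16.9 in NPC (log2 change -2.24, SE 0.37). Its 19 neighbours were at 2.43 and 2.96 in iPS cells against 5.01 and 5.22 in NPC. The neighbours of these 3 pairs were thus higher in NPC as well, by less than the pairs themselves. Neighbours can share a fragment with the named pair, so the level of that fragment can enter both.

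Among whole fragments 18 of 254 (7.09%) were called, 12 higher and 6 lower in iPS cells, against 20.1% in all regions (10.1% higher and 9.97% lower). FOR_74 itself was at 0.994 and 1.10 in iPS cells against 1.53 and 1.54 in NPC (log2 change -0.55, SE 0.14), and REV_6 (chr3:34119901-34130940) at 2.74 and 2.35 against 1.50 and 1.58 (log2 change 0.72, SE 0.18). The split of the pair calls moved with the scaling here too, with 184 higher and 1184 lower by TMM factors and 3375 higher and 232 lower by region totals. The median of all pairs was 0.07 by TMM factors, 0.91 by region totals and 0.17 with distance classes. Without iPS replicate 1 there were 110 called pairs and without NPC replicate 1 there were 328, and the count of fragments was 7, 7, 6, 0 and 1 without ES replicate 1, ES replicate 2, NPC replicate 1, NPC replicate 2 and iPS replicate 1.

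The third comparison sets iPS cells against ES cells in serum and LIF. In blocks, 66 of 324 (20.4%) were called, 43 higher and 23 lower in iPS cells, against 15.0% in all regions (10.1% higher and 4.93% lower). Of the blocks with one central window, 14 rose and 5 fell on the upstream side and 14 rose and 5 fell on the downstream side, while of the 100 that join upstream and downstream windows 1 rose and 8 fell. The windows at -62 and 138 kb were at 0.743 and 0.677 in iPS cells against 1.13 and 1.15 in ES cells (log2 change -0.68, SE 0.11, edgeR adjusted p = 0.00339). The windows at -102 and 338 kb were at 1.12 and 0.947 in iPS cells against 1.51 and 1.74 in ES cells (log2 change -0.65, SE 0.15), and those at 138 and 418 kb at 1.61 and 1.60 against 2.45 and 2.30 (log2 change -0.57, SE 0.10). For the first of these blocks the NPC values, 0.283 and 0.331, lay further down. The block at -102 and 338 kb holds FOR_276 with REV_111, a pair high in ES cells alone, and was not tested without that pair.

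These counts rested on the ES libraries and on how the primers were scaled. Without ES replicate 1, ES replicate 2 or iPS replicate 2 there were 4, 5 and 5 called blocks. With the expected level also scaled per primer 6 blocks were called, 4 of them shared, against 0.932% in all regions. Of the primer pairs 404 (2.94%) were called, 278 higher and 126 lower in iPS cells, against 5.19% in all regions (3.72% higher and 1.47% lower). With the scaling per primer 4 pairs were called (0.0291%, against 0.0145% in all regions). TMM factors gave 131 higher and 445 lower, and region totals 287 higher and 108 lower. Leaving out ES replicate 1, ES replicate 2, iPS replicate 1 and iPS replicate 2 gave 56, 102, 227 and 90 called pairs. FOR_311 with REV_309, 2 fragments of the far downstream end, was at 2.13 and 2.19 in iPS cells against 0.238 and 0.341 in ES cells (log2 change 2.90, SE 0.38), and its log2 change was -0.32 (edgeR adjusted p = 0.772) with the scaling. For FOR_290 with REV_292 the log2 change of 2.77 became -0.013, and for FOR_228 with REV_234 that of 2.30 became -0.13. Summed fibroblast markers were higher in iPS than in ES cells, and their part in these differences was not tested.

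Of the 4 pairs called with the scaling per primer, 3 were also called without it. The largest change with either scaling among the named pairs was that of FOR_276 (chr3:34900010-34902586) with REV_111 (chr3:34450022-34455379). This pair, 449 kb apart, had 38 and 34 counts in iPS cells and 1295 and 1366 counts in ES cells. The block of the windows at -102 and 338 kb holds this pair. That block had 3870 and 4802 counts in ES cells and 1590 and 1365 counts in iPS cells. As observed over expected the pair was at 1.06 and 0.928 in iPS cells against 19.97 and 19.6 in ES cells (log2 change -4.31, SE 0.35, edgeR adjusted p = 2.02e-07), and with the scaling per primer 0.780 and 0.710 against 9.24 and 9.93. In iPS cells in 2i, NPC and ES cells in 2i it was at 1.04 to 1.92. Its 10 neighbouring pairs within 10 kb were at 1.50 and 1.07 in iPS cells and 1.18 and 1.80 in ES cells, so the neighbours did not stand out in the ES libraries.

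Of the 254 fragments 53 (20.9%) were called between iPS and ES cells, 35 higher and 18 lower, against 24.1% in all regions (14.8% higher and 9.32% lower). FOR_311, a fragment of 107 bp, was at 0.592 and 0.520 in iPS cells against 0.0670 and 0.123 in ES cells (log2 change 2.55, SE 0.46). FOR_185 (chr3:34676623-34678508), next to the control region, was at 0.759 and 0.733 in iPS cells against 1.55 and 1.69 in ES cells (log2 change -1.12, SE 0.13). FOR_215 fell by 0.91 and REV_217 fell by 0.82 on the log2 scale. For FOR_185 the other 6 libraries lay between 0.665 and 0.822, so that the ES libraries stood apart from all others. Without ES replicate 1, ES replicate 2 and iPS replicate 2 there were 9, 10 and 11 called fragments.

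The effect of the medium was read in each cell type by setting 2i against serum and LIF. In ES cells 120 of 324 blocks (37.0%) were called, 66 higher and 54 lower in 2i, against 33.8% in all regions (20.5% higher and 13.3% lower). Of the 50 blocks between a central and a downstream window 23 rose and 6 fell, but 2 rose and 3 fell with the scaling per primer. The 2 largest rises were in blocks of the window at 258 kb, with 0.500 and 0.621 within it in ES cells in 2i against 0.133 and 0.185 in ES cells (log2 change 1.82, SE 0.18). With the window at 98 kb it had 1.13 and 1.21 against 0.491 and 0.331 (log2 change 1.51, SE 0.26). Both blocks held 4 pairs. The window at 258 kb holds REV_234, which as a whole fragment was at 0.498 and 0.624 in ES cells in 2i against 0.127 and 0.154 in ES cells. Block and fragment are therefore not separate observations. Of the 54 blocks that fell, 15 had both windows upstream of Sox2, 13 both beyond the control region, 13 one on either side, and 13 at least one central window. The 2 falls given here joined fragments beyond the control region. The window at 138 kb overlaps the excluded interval, however, so the first of them counts among the blocks with a central window. Contacts between the windows at 138 and 178 kb were at 0.337 and 0.343 in ES cells in 2i against 0.585 and 0.782 in ES cells (log2 change -1.01, SE 0.16), and those between the windows at 178 and 218 kb at 0.466 and 0.450 against 0.805 and 0.940 (log2 change -0.93, SE 0.13). Both falls were called with the scaling per primer, with edgeR adjusted p = 0.011 and 0.0474.

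In pairs, 1148 of 13726 (8.36%) were called between ES cells in 2i and ES cells, 500 higher and 648 lower, against 11.8% in all regions (6.53% higher and 5.27% lower). With the scaling per primer 85 pairs were called (0.619%, against 0.918% in all regions). In blocks 57 were called with it (17.6%, against 14.8% in all regions), 16 higher and 41 lower. TMM factors gave 351 higher and 1116 lower, and region totals 295 higher and 1157 lower. Without ES replicate 1, ES replicate 2, ES in 2i replicate 1 and ES in 2i replicate 2 there were 486, 255, 345 and 551 called pairs, and without the first 3 of these 59, 49 and 68 called blocks. FOR_148 with its neighbour REV_147 was at 0.797 and 0.665 in ES cells in 2i against 0.0762 and 0.104 in ES cells (log2 change 3.02, SE 0.30), and remained called with the scaling (log2 change 1.73, edgeR adjusted p = 0.00869). FOR_282 with REV_280 was at 1.40 and 1.47 in ES cells in 2i against 0.157 and 0.194 in ES cells (log2 change 3.03, SE 0.28), with 0.72 and edgeR adjusted p = 0.073 after scaling. In fragments 87 of 254 (34.3%) were called, 40 higher and 47 lower, against 35.8% in all regions (19.6% higher and 16.2% lower), with 39 and 33 called without ES replicate 1 and 2. Summed fibroblast markers were lower in ES cells in 2i than in ES cells, and their part was not tested.

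In iPS cells few differences between the media passed the test. Of the 324 blocks 13 (4.01%) were called, 4 higher and 9 lower in 2i, against 2.43% in all regions (1.5% higher and 0.932% lower), while 97 had an unadjusted p below 0.05. The windows at -62 and 138 kb were at 1.13 and 1.15 in iPS cells in 2i against 0.743 and 0.677 in iPS cells (log2 change 0.68, SE 0.11, edgeR adjusted p = 0.0174), and those at -22 and 138 kb at 1.43 and 1.45 against 1.05 and 0.914 (log2 change 0.55, SE 0.11). The windows at -342 and 18 kb were at 0.790 and 0.832 in iPS cells in 2i against 1.28 and 1.34 in iPS cells (log2 change -0.69, SE 0.12), and those at -382 and -22 kb at 0.730 and 0.722 against 1.31 and 1.03 (log2 change -0.69, SE 0.13). With the scaling per primer 38 blocks were called in all (11.7%, against 5.26% in all regions), 15 higher and 23 lower. The 4 blocks just given were among them, with edgeR adjusted p from 0.00899 to 0.0129. In the 2 of these 4 blocks that rose, iPS cells in 2i differed from iPS cells toward the values of ES cells in 2i (1.01 and 1.08, and 1.48 and 1.44), and in the 2 that fell likewise (0.798 and 0.957, and 0.643 and 0.752). ES cells were at 1.13 and 1.15, and 1.15 and 1.26, in the 2 that rose. In the 2 that fell they were at 0.911 and 0.828, and 1.07 and 1.03. For the windows at -62 and 138 kb, iPS cells in 2i were thus at the level of ES cells. With any of the libraries of ES cells or iPS cells left out, or iPS in 2i replicate 1, no block was called, and without iPS in 2i replicate 2 there were 21.

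Of the primer pairs 1 of 13726 was called between iPS cells in 2i and iPS cells (817 had an unadjusted p below 0.05), against 0.0514% of all pairs (0.0474% higher and 0.00395% lower). It joined FOR_161 (chr3:34568500-34573943) and REV_166 (chr3:34595056-34598160), between the excluded intervals, with 14.1 and 11.4 in iPS cells in 2i against 4.67 and 4.38 in iPS cells (log2 change 1.49, SE 0.26, edgeR adjusted p = 0.0295), and it did not pass with the scaling per primer (edgeR adjusted p = 0.244). No fragment was called by edgeR, against 0.522% in all regions, and 20 of 254 had an unadjusted p below 0.05. Between iPS cells in 2i and ES cells in 2i edgeR called no pair, no block and no fragment, and none in the other regions either. In that comparison 546 of the 13726 pairs, 20 of 324 blocks and 19 of 254 fragments had an unadjusted p below 0.05, and DESeq2 called 1 pair. A p that misses the threshold does not show that the 2 groups were alike. With 2 libraries a group, FOR_276 with REV_111 was at 1.65 and 1.32 in iPS cells in 2i and at 1.92 and 1.77 in ES cells in 2i, and FOR_148 was at 1.00 and 1.07 in iPS cells in 2i and at 1.07 and 1.26 in ES cells in 2i. The difference between the 2i responses of iPS and ES cells was called for 126 pairs (0.918%, against 1.96% in all regions), 48 blocks (14.8%, against 11.1%) and 41 fragments (16.1%, against 19.7%). With the scaling per primer 2 pairs (0.0146%, against 0.00264% in all regions) and no block were called. Of the pairs 54 were higher and 72 lower, against 0.572% and 1.39% of all pairs, and TMM factors turned this split to 251 higher and 31 lower. Of the blocks 16 were higher and 32 lower (4.06% and 6.99% of all blocks), and of the fragments 16 were higher and 25 lower (8.02% and 11.7% of all fragments). Without ES replicate 1, ES replicate 2 or iPS replicate 2 there was 1 called block, without ES in 2i replicate 2 there were 16 and without iPS in 2i replicate 1 there were 28. Without any single library of ES or 2i cells, or without iPS replicate 2, there were 27 to 65 called pairs.

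**Figure D5:**
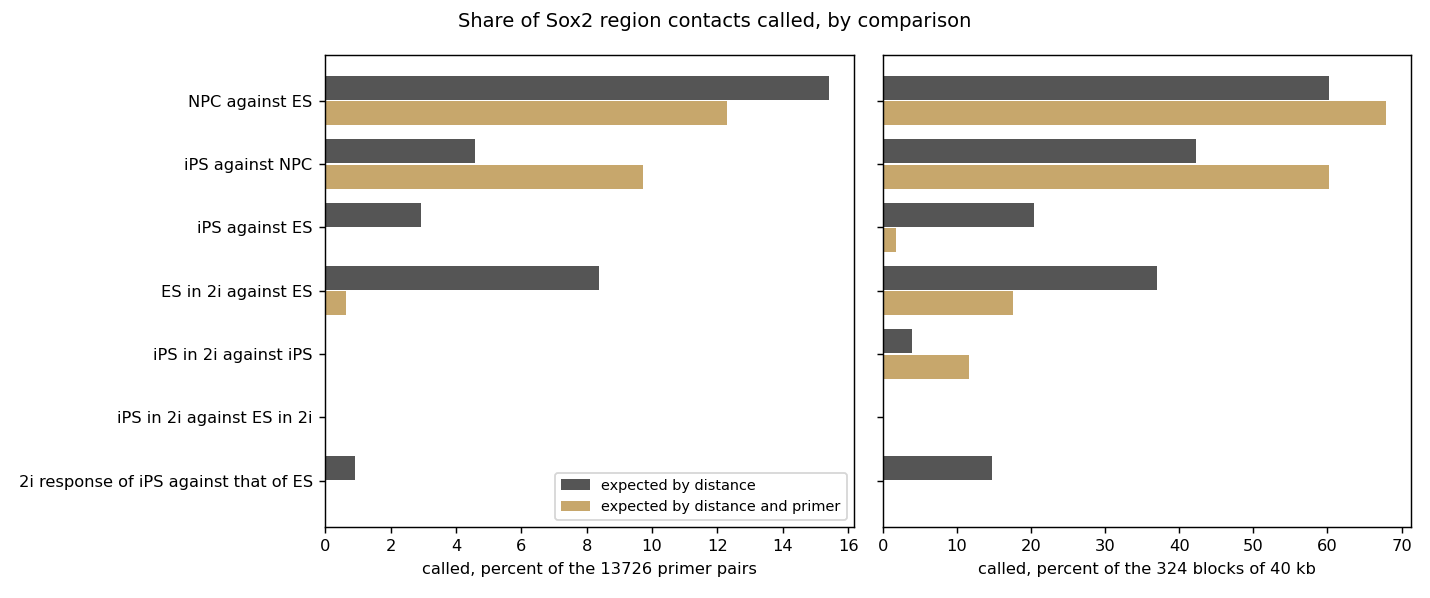
Percent of the 13726 primer pairs and of the 324 blocks called in each comparison, with the expected level set by distance (dark bars) or by distance and primer (light bars). The bars of NPC against ES (15.4% and 12.3% of pairs, 60.2% and 67.9% of blocks) and of iPS against NPC remain, whereas those of iPS against ES and of the difference between 2i responses nearly vanish.

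How the calls depended on the scaling per primer thus differed between comparisons. For NPC against ES cells 1683 pairs were called with it, 898 of them shared with the 2116 without it, against 14% of all pairs. In blocks 220 were called, 80 higher and 140 lower in NPC, 154 of them shared, against 49.6% of all blocks. Of the 100 blocks that join upstream and downstream windows 12 rose and 64 fell. For iPS cells against NPC 1335 pairs were called (9.73%, against 13.4% of all pairs), 520 of them shared. In blocks 195 were called (60.2%, against 50% of all blocks), 129 higher and 66 lower, 121 of them shared. All 6 pairs named above that meet at REV_73, FOR_74, REV_75 or FOR_159 with higher values in NPC were called with either scaling.

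The authors' deposited table puts pairs of 20 kb bins into classes named for ES cells, NPC and iPS cells. Of the 3576 classed bin pairs away from the excluded intervals, 2585 (72.3%) were background, against 69.2% of the 32065 in all regions. Bin pairs specific to ES cells made up 13.2% against 8.08%, those specific to NPC 9.98% against 14.8%, and those specific to iPS cells 2.80% against 4.48%. Constitutive bin pairs numbered 5 (0.140%, against 1.09%). The largest cluster specific to NPC in the authors' deposited table, 63 bin pairs between chr3:34300880-34376879 and chr3:34448880-34476879, holds the fragments REV_73, FOR_74, REV_75, REV_113 and FOR_114. Its 95 primer pairs were at 2.14 and 2.21 in NPC, against 1.04 to 1.35 in the 8 libraries of pluripotent cells, and at 2.32 and 2.18 against 1.15 to 1.41 with the scaling per primer. The largest cluster specific to ES cells, 100 bin pairs between chr3:34728880-34780879 and chr3:34836880-34908879, lies wholly downstream. Its 132 primer pairs were at 1.01 and 1.07 in ES cells and at 0.559 to 0.801 in the other libraries, and with the scaling per primer the ES values of 0.853 and 0.919 overlapped the others (0.675 to 0.914). These classes come from the same libraries and are no separate evidence.

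RNA of the region was read from 1 named transcript model, Sox2 (chr3:34548927-34551382). It had 329 and 327 CPM in iPS cells in 2i, 111 and 117 CPM in iPS cells, 251 and 247 CPM in NPC, 627 and 476 CPM in ES cells in 2i, and 477 and 576 CPM in ES cells. It fell in NPC against ES cells (log2 change -1.08, edgeR adjusted p = 9.48e-08), in iPS cells against NPC (-1.13, edgeR adjusted p = 1.07e-07) and in iPS against ES cells (-2.20, edgeR adjusted p = 8.71e-14). It was lower in iPS cells in 2i than in ES cells in 2i (-0.75, edgeR adjusted p = 0.000118). It rose by 1.52 in iPS cells with 2i and did not pass the test in ES cells with 2i (0.07, edgeR adjusted p = 0.765). In these comparisons 61.0%, 51.3%, 52.9%, 25.3%, 42.6% and 24.5% of the 11031 tested models were called. The strand setting is not given in the sources used here, so reads of the overlapping Sox2ot cannot be told apart. RNA and 5C libraries were separate, and no relation between Sox2 RNA and contacts was tested.

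Of 13 genes of chromatin architecture, 9 were measured. Rad21, a cohesin subunit, had 208 and 283 CPM in iPS cells in 2i, 137 and 149 CPM in iPS cells, 210 and 196 CPM in NPC, 484 and 429 CPM in ES cells in 2i, and 424 and 426 CPM in ES cells. Of the 9, 3 rose and 3 fell in NPC against ES cells with a median log2 change of -0.49, against -0.21 over all models. In iPS cells against NPC 1 rose and 5 fell, and in iPS against ES cells none rose and 5 fell. Of all 11031 tested models 61.0%, 51.3% and 52.9% were called in these comparisons. No test set the 9 genes apart from those shares. Ctcf, the insulator protein, was at 0.837 and 1.74 CPM in NPC against 4.15 and 4.74 CPM in ES cells (log2 change -1.54, edgeR adjusted p = 0.0187), and at 1.24 and 1.19 CPM in iPS cells. The NPC libraries had 1150624 and 3644461 assigned counts, so the Ctcf values there rest on few reads. Each gene was read from 1 transcript model, the one with the highest mean CPM. Smc1a, another cohesin subunit, was highest in NPC with 30.1 and 34.8 CPM against 11.2 and 8.69 CPM in ES cells. In iPS cells with 2i 3 of the 9 rose and none fell, against 42.6% of all models called. In ES cells with 2i edgeR called none of the 9, against 24.5% of all models.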

How the data were processed

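5C was measured in 10 libraries and RNA in 10 libraries, 2 per group. The authors deposited whole-number 5C counts per primer pair and, in the RNA files, counts per transcript model. They also deposited a table of binned 5C values on a log scale with a class per bin pair, whose log base (log2 or another) is not stated, so only its classes, signs and correlations were used. The submitters' processing notes name Bowtie, TopHat2 2.1.0, HTSeq and the build mm9. Coordinates are those of the primer names and fragment lists in the authors' files. Sequences of the fragments are not printed, since no genome of that build was used here.

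Pairs with a mean of at least 10 counts over the 10 libraries were tested with edgeR 4.0.16 (quasi-likelihood F test, R 4.3.3) on the deposited counts. The fit took all 75889 such pairs of the 7 regions, 1 coefficient per group and 5 residual degrees of freedom. The offset was the mean count of the same library, region and distance class (20 classes). Benjamini-Hochberg adjustment ran over all tested pairs, with calls at 0.05. Blocks of 40 by 40 kb with at least 3 pairs and a mean of at least 50 counts, and sums per fragment, were tested the same way, as were RNA models with edgeR. The SE is the log2 change divided by the square root of F. Fragment sums and the scaling per primer, which also multiplies the expected count by a factor per primer and library, were added after seeing the data.

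Named pairs were the 4 largest changes per direction among called pairs with a mean of at least 100 counts, and named blocks and fragments the 3 largest. The members, lists and tests were chosen with earlier results of these data known. On counts simulated for NPC against ES over 75889 pairs, 1.49%, 49.3% and 90.9% of 2-, 4- and 8-fold changes were recovered, and 4.08% of calls were false. In it 67, 67 and 66 pairs with a mean of at least 20 counts were changed, with the same spread set for every pair. In the real comparison 17.8% of all pairs were called, which makes the adjustment less strict, so these rates do not carry over to it. Alternatives were TMM factors, region totals, other count minimums, 80 kb windows, a replicate block, DESeq2 1.42.0, limma 3.58.1 on the binned values and leaving out each library. PCR reads carry no molecular identifiers here, so their spread covers more than counting error.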

Additional observations from a re-analysis of the deposited data

Results flagged for a closer look

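The response to 2i differed between iPS and ES cells, by the test of that difference, for 126 primer pairs, 48 blocks and 41 fragments. With the expected level also scaled per primer, 2 pairs and no block remained called. A positive value below means a higher response in iPS than in ES cells.

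Among the pairs, the difference was 3.99 for FOR_276 with REV_111, 3.22 for FOR_60 with REV_124, 2.60 for FOR_28 with REV_40 and 2.59 for FOR_195 with REV_220 on the log2 scale. It was -3.28 for FOR_148 with REV_38, -2.76 for FOR_282 with REV_280, -2.63 for FOR_311 with REV_309 and -2.62 for FOR_215 with REV_234. For FOR_276 with REV_111 it was also called with the scaling per primer (edgeR adjusted p = 0.0021). For each of the other 7 pairs it was not (edgeR adjusted p from 0.545 to 0.993). For FOR_60 with REV_124, FOR_195 with REV_220, FOR_311 with REV_309 and FOR_215 with REV_234 the call was also lost without at least one of the 2 ES libraries.

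Among the blocks, the difference was 0.83 for the windows at -102 and 338 kb, 0.80 for those at -62 and 138 kb and 0.79 for those at 138 and 218 kb. It was -1.89 within the window at 258 kb, -1.82 for the windows at 98 and 258 kb and -1.62 for those at 98 and 378 kb. The block at -102 and 338 kb holds FOR_276 with REV_111 and was not tested without that pair. The window at 258 kb holds the fragment REV_234. Among the fragments the difference was 1.21 for FOR_215, 1.18 for REV_217 and 1.16 for FOR_206, and -2.23 for REV_234, -2.09 for FOR_311 and -1.99 for FOR_148. The ES libraries in serum were outside the range of the other 8 libraries for each of these 6 fragments.

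Sox2 RNA responded to 2i more in iPS than in ES cells, with a difference of 1.45 on the log2 scale (edgeR adjusted p = 1.18e-06). Pairs of 2 forward or 2 reverse primers, which the comparisons do not use and which 5C is not meant to join, held 2035 to 13360 counts per library in the Sox2 region, or 0.0983% to 0.432% of the forward and reverse counts.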

How the results depend on the processing

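In the simulation most 2-fold changes of single pairs were missed, and the part of depth in this was not tested. Libraries of 1 group differed by a chi-square per degree of freedom of 6.90 to 11.9, so their spread exceeded counting error. The cause of the changes below was not tested, except that 80 kb windows give fewer blocks by construction. Called pairs of NPC against ES numbered 3677 with region totals. For iPS against NPC they numbered 1368 with TMM factors, 3607 with region totals and 1335 with the scaling per primer. For iPS against ES they numbered 4 with the scaling per primer and 686 with DESeq2, and for ES in 2i against ES 85 with the scaling per primer. For iPS in 2i against iPS they numbered 22 with TMM factors, 4 with region totals, 2 with the scaling per primer and 29 with DESeq2, and for iPS in 2i against ES in 2i 1 with DESeq2. For the difference between responses they numbered 282 with TMM factors, 2 with the scaling per primer and 360 with DESeq2. Called blocks numbered 57, 43, 16 and 37 with 80 kb windows in NPC against ES, iPS against NPC, iPS against ES and ES in 2i against ES, and 17 for the difference. With limma on the authors' binned values they numbered 80 for iPS against NPC, 4 for iPS in 2i against iPS and 27 for the difference. With the scaling per primer they numbered 6 for iPS against ES, 57 for ES in 2i against ES, 38 for iPS in 2i against iPS and 0 for the difference.

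The main fit did not pair libraries by replicate number, and correlations of same-numbered deviations ran from -0.052 to 0.147. Counts between regions were 8.01% and 17.6% in replicates 1 and 2 of iPS in 2i, and 9.36% and 16.3% in iPS. They were 8.14% and 16.2% in ES in 2i and 17.8% and 19.2% in ES, but 15.5% and 10.8% in NPC. Whether libraries of the same replicate number shared a step of handling was not tested. With the replicate block, 3 and 218 pairs were called for iPS in 2i against iPS and for the difference, 41 blocks for iPS in 2i against iPS, and 43, 82, 1 and 68 fragments for iPS against NPC, iPS against ES, iPS in 2i against iPS and the difference.

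Leaving out 1 library gave 947 to 2088, 110 to 587, 56 to 526, 255 to 1383, 0 to 3, 0 to 0 and 27 to 186 called pairs, in the order NPC against ES, iPS against NPC, iPS against ES, ES in 2i against ES, iPS in 2i against iPS, iPS in 2i against ES in 2i and the difference. In the same order it gave 137 to 195, 93 to 142, 4 to 70, 49 to 124, 0 to 21, 0 to 0 and 1 to 56 blocks, 45 to 109, 0 to 26, 9 to 62, 33 to 96, 0 to 0, 0 to 0 and 6 to 48 fragments, and Sox2 RNA log2 changes of -1.26 to -1.12, -1.16 to -0.99, -2.34 to -2.17, -0.11 to 0.26, 1.49 to 1.59, -0.94 to -0.59 and 1.27 to 1.69. Sox2 RNA in ES in 2i against ES turned to -0.06 without ES replicate 1 and -0.11 without ES in 2i replicate 1.

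The class of pairs from upstream to beyond the control region had, with a mean of at least 20 counts, differences in observed over expected of -0.435 (NPC minus ES), 0.265 (iPS minus NPC), -0.169 (iPS minus ES), -0.0575 (ES in 2i minus ES) and 0.142 (iPS in 2i minus iPS). With the scaling per primer these were -0.244, 0.184, -0.0601 and 0.0176 for the first 4, and 0.0162 for iPS in 2i minus ES in 2i. Pairs from between the intervals to beyond the control region had 0.376 (NPC minus ES), 0.317 (ES in 2i minus ES) and -0.137 (iPS in 2i minus ES in 2i) with at least 20 counts, and 0.330, 0.0901 and -0.0321 with the scaling per primer. Of the named pairs in iPS against ES, FOR_311 with REV_309 turned to -0.32, FOR_290 with REV_292 to -0.013 and FOR_228 with REV_234 to -0.13 with the scaling per primer. Of all alternatives tried, 652 of 697 for named pairs, 358 of 432 for named blocks and 290 of 330 for named fragments kept the direction and the side of the threshold, most of them fits without 1 library. With the scaling per primer alone this held for 20 of 41 named pairs and 24 of 36 named blocks, and a further 18 pairs and 12 blocks kept the direction but were no longer called.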
